A study of Mus musculus with 12 samples.

Results

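The 32 genes described here encode parts of the machinery that copies DNA and divides the cell. They were chosen by name, with earlier results of these data known. They are 32 of 23955 genes in the deposited tables, and each of them passed the filter on low counts, which left 14785 genes for testing. By role, 23 act in mitosis and 9 in DNA replication. The mitotic genes were the proliferation antigen Mki67 and the topoisomerase Top2a, 7 cyclins and mitotic kinases, 5 genes of the kinetochore, spindle checkpoint and chromosomal passenger complex, 7 motors and microtubule binders of the spindle, and 2 genes of the anaphase-promoting complex. The replication genes were Mcm2 to Mcm7, the 6 subunits of the replicative helicase, with the sliding clamp Pcna and the nucleotide synthesis enzymes Rrm2 and Tyms.

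A dividing cell switches these genes on in successive waves. Replication genes come on as the cell commits to S phase, largely through E2F transcription factors, and mitotic genes follow later through the MuvB complex with its partners B-Myb and FoxM1. In the embryonic cortex the dividing cells are radial glia and intermediate progenitors, later joined by glial precursors, and a newborn neuron leaves the cell cycle for good and turns most of these genes down.

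RNA was sequenced from cortical neurons cultured from E16.5 embryos of C57BL/6J mice. Lentiviral pGreenPuro vectors carrying a short hairpin RNA (shRNA) were added 1 day after plating, and cells were collected 7 days after dissection. There were 5 groups of 2 biological replicates: the control hairpins shControl1 and shControl2, shAdar1 against the editing enzyme ADAR1 (gene Adar), shAdar2 against the editing enzyme ADAR2 (gene Adarb1), and shZfr against the zinc finger RNA-binding protein Zfr. Every group, controls included, had been infected with a hairpin virus. The study set shAdar1 and shAdar2 against shControl1, and shZfr against shControl2. The first replicate of shAdar2 had 3 technical libraries made from the RNA of 1 culture, which were summed to 1 sample.

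The 12 libraries held 15818943 to 29671858 expected counts each. Levels are given as CPM, which divides each count by its TMM-adjusted library size, and differences as log2 fold changes with their standard error (SE). A gene was called where edgeR's quasi-likelihood test over all 10 samples gave a Benjamini-Hochberg adjusted p under 0.05. Each hairpin lowered its own target: Adar stood at 53.3 ± 2.43 CPM (SD, n = 2) in shAdar1 and 172 ± 27.6 CPM in shControl1, Adarb1 at 50.2 ± 2.53 CPM in shAdar2 and 120 ± 2.77 CPM in shControl1, and Zfr at 173 ± 0.118 CPM in shZfr and 459 ± 52.6 CPM in shControl2. All 3 targets were called lower. The 12 neuron markers summed to between 4160 and 11600 CPM, whereas the 5 tested microglia markers summed to at most 4.75 CPM and the 10 tested endothelial, mural and fibroblast markers to at most 35.5 CPM. Because these are bulk samples, fewer cells of a type and less RNA per cell cannot be told apart.

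The 5 groups differed widely in the summed level of the 32 genes, and the control hairpins differed from each other as well. In shAdar2 the sums were 175 and 308 CPM in replicates 1 and 2, in shControl1 463 and 407 CPM, in shAdar1 509 and 1180 CPM, in shControl2 936 and 970 CPM, and in shZfr 1500 and 1410 CPM. The samples of shAdar2 lay below all others and those of shZfr above all others, while shAdar1 spanned both samples of shControl2. The mean sum in shControl2 (953 ± 23.6 CPM, SD, n = 2) was 2.19 times that in shControl1 (435 ± 39.4 CPM). The mean in shZfr (1450 ± 65.1 CPM) was 1.52 times that in shControl2 and 3.33 times that in shControl1.

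Gene by gene the order was much the same. The highest group mean was that of shZfr for 28 of the 32 genes, that of shAdar1 for Mcm7, Pcna and Rrm2, and that of shControl2 for Mcm6. The lowest was that of shAdar2 for 27 genes and that of shControl1 for Plk1, Mcm2, Mcm5, Mcm7 and Tyms. Mitotic genes varied over a wider range than replication genes: the ratio of the highest to the lowest group mean had a median of 6.85 over the 23 mitotic genes (3.40 for Ccnb2 to 16.2 for Ccnb1) and of 2.74 over the 9 replication genes (1.52 for Mcm7 to 5.24 for Rrm2). The summed mitotic level was accordingly 1.77 and 1.80 times the summed replication level in the samples of shControl1, 4.04 and 4.21 times in shControl2, 5.12 and 5.04 times in shZfr, 2.12 and 2.68 times in shAdar1, and 0.866 and 1.45 times in shAdar2. Only in replicate 1 of shAdar2 did the 9 replication genes sum to more than the 23 mitotic genes. These sums are not scaled for transcript length, so their ratio serves to compare samples only. Mki67 and Top2a alone gave 560 of the 1250 CPM of the mitotic sum in replicate 1 of shZfr. In replicate 1 of shAdar2 they gave 22 of 81.4 CPM.

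**Figure D1:**
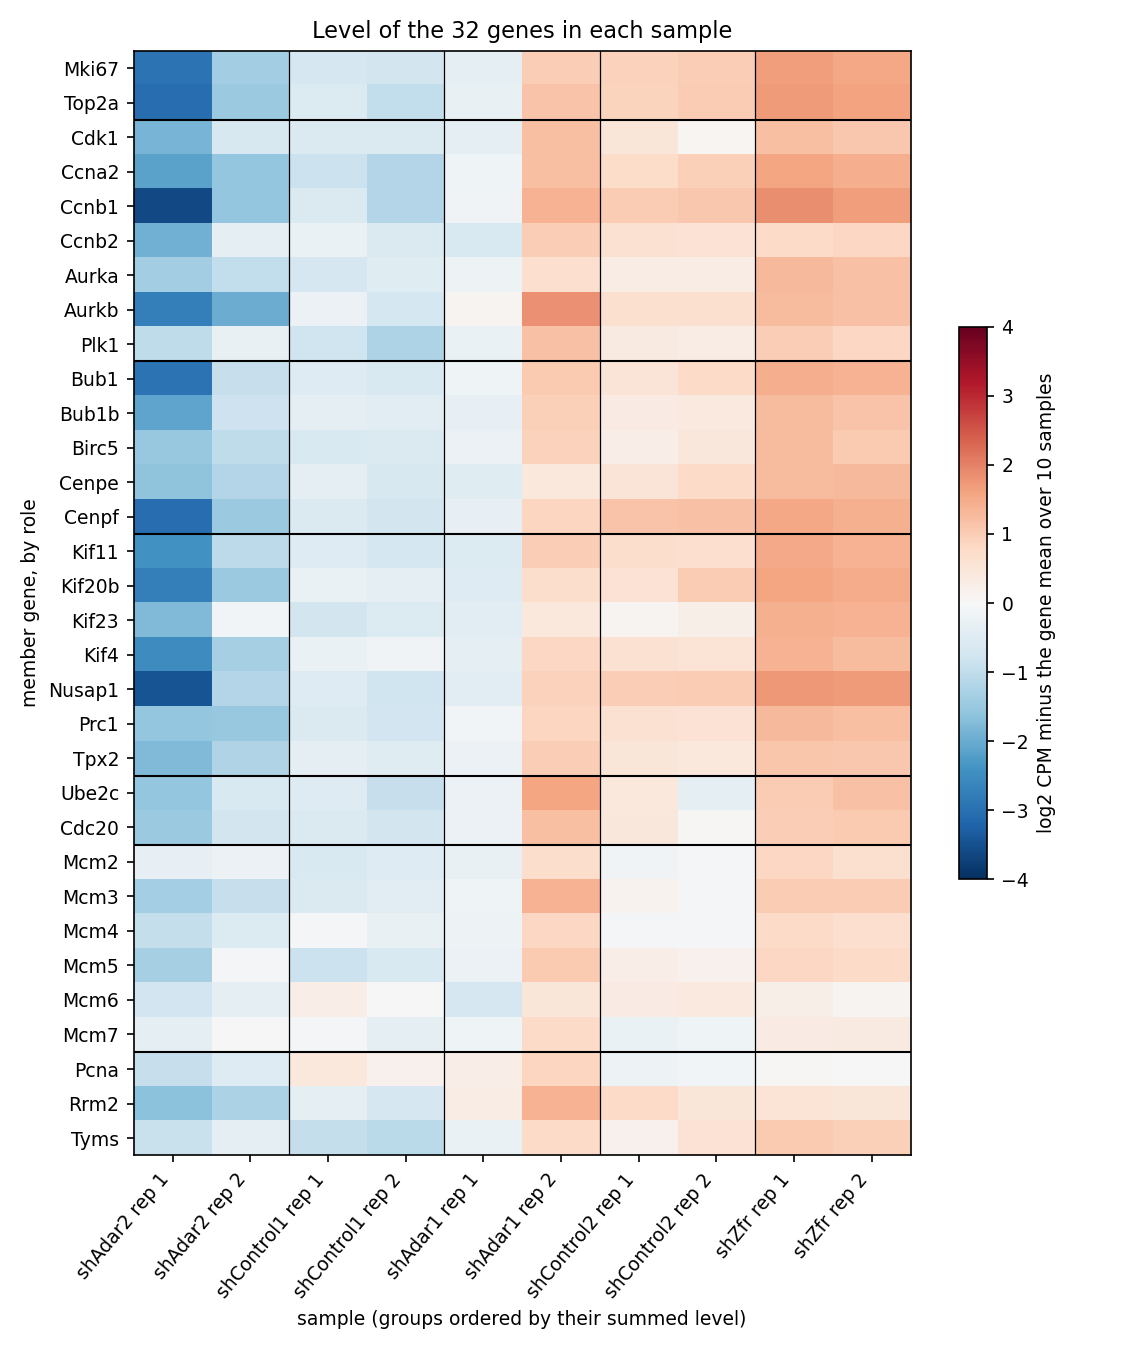
Each cell is the log2 CPM of 1 gene (vertical axis, by role, roles parted by black lines) in 1 sample (horizontal axis), minus that gene's mean over the 10 samples, on the colour scale in log2 units. Columns darken from blue to red from shAdar2 to shZfr for most genes, the 2 shAdar1 columns differ from each other, and Mcm6, Mcm7 and Pcna vary least.

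Compared per length of transcript, in TPM, the gene with the highest mean over the 10 samples was Pcna, at 111 TPM (55.7 in replicate 1 of shAdar2 to 175 in replicate 2 of shAdar1). Top2a followed with a mean of 54.2 TPM (4.32 to 122), then Mki67 with 46.4 TPM (4.15 to 104) and Rrm2 with 36.9 TPM (9.85 to 74.2). In shZfr the order was different, with Top2a at 122 and 114 TPM and Pcna at 115 and 110 TPM in replicates 1 and 2, so that their samples overlapped. Aurkb and Tyms had the lowest, each a mean of 6.45 TPM. For 28 of the 32 genes the lowest of the 10 samples in CPM was replicate 1 of shAdar2, and for 19 the highest was replicate 1 of shZfr.

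The control hairpins already differed in these genes. Of the 32, 14 were called higher in shControl2 than in shControl1, where 19.9% of all tested genes were called higher, and the groups did not overlap for 29 genes above and 1 below, against 36.9% of all tested genes above. The median log2 fold change of the 32 genes was 0.98, with a range from −0.46 (Pcna) to 1.89 (Ccnb1), and that of all tested genes −0.05. Of the called genes, 12 were mitotic and 2 were the nucleotide synthesis enzymes Rrm2 and Tyms. Without shControl1 replicate 1 or 2 the count was 6 or 2, where 15.3% or 12.5% of all genes were called higher, and without shControl2 replicate 1 or 2 it was 5 or 5, where 14.6% or 11.9% were. The 2 of 32 lay below the share of all genes and the 5 of 32 near it. In a fit of the 4 control samples alone it was 28 higher and 1 lower, against 26.5% of all genes in each direction.

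In shZfr against its own control, shControl2, 30 of the 32 genes had groups that did not overlap with shZfr above, against 42.9% of all tested genes, and only 2 were called. These were Aurka and Mcm2, both higher, where 16.7% of all tested genes were called higher, a larger share than that of the 32. The median log2 fold change was 0.71 over the 32 genes and 0.05 over all tested genes. No gene was called with any 1 of the 4 replicates left out (6.13% to 8.69% of all genes called higher), 8 genes had an unadjusted p under 0.05 in the fit of all samples, and DESeq2 called 7, all higher (2435 of all 14785 tested genes were called higher by it), and edgeR with no filter on low counts 7 (13% of all genes higher).

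Against shControl1, the hairpin with the lower levels, shZfr had 28 called genes, all higher, where 22.8% of all tested genes were called higher. The median log2 fold change was 1.79. The 4 genes not called were Ccnb2, Mcm6, Mcm7 and Pcna. Without shControl1 replicate 1 or 2 the count was 17 or 13, where 17.1% or 16.3% of all genes were called higher. The study did not pair these groups, and both comparisons of shZfr share the same shZfr samples.

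In shAdar1 against shControl1, 7 of the 32 genes were called, all higher: Ccna2, Aurkb, Plk1, Prc1, Mcm3, Rrm2 and Tyms. Of all tested genes, 9.33% were called higher. The groups did not overlap, with shAdar1 above, for 23 of the 32 genes and for 31.5% of all tested genes, and the median log2 fold change was 1.06 over the 32 and 0.02 over all. The count rested on replicate 2 of shAdar1: without it no gene was called (4.87% of all genes higher) and the median was 0.33, whereas without replicate 1 of shAdar1 22 genes were called (5.85% of all genes higher). Without shControl1 replicate 1 or 2 the count was 1 or 0, where 5.99% or 3.23% of all genes were called higher. DESeq2 called 14 genes higher (10.6% of all genes), the fit without a filter 18 (8.37%) and a fit of the 2 groups alone 2 (6.42%).

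In shAdar2 against shControl1, 10 of the 32 genes were called, all lower: Top2a, Aurkb, Cenpe, Cenpf, Kif20b, Kif4, Prc1, Tpx2, Pcna and Rrm2. The share of all tested genes called lower was 23.2%. The groups did not overlap, with shAdar2 below, for 24 genes (34.1% of all tested genes), and the median was −0.85 against 0.04 over all. Without replicate 1 of shAdar2 the count was 2 (23% of all genes lower) and without replicate 2 it was 18 (26.6%). Without shControl1 replicate 1 or 2 it was 3 or 4 (17.9% or 17.8%). Except without replicate 2 of shAdar2, these counts lay below the share of all genes. With no filter on low counts 18 genes were called (18.3% of all genes lower).

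Set against the other control hairpin the shAdar1 and shAdar2 comparisons came out differently. Against shControl2, 1 gene was called in shAdar1 (Pcna, higher, 19.3% of all tested genes called higher), and the median was −0.02. By edgeR, 8 genes were called higher without replicate 1 of shAdar1 (11.7% of all genes) and 4 lower without replicate 2 (8.41%), and without shControl2 replicate 1 or 2 none was called higher (12.7% or 6.25%). Against shControl2, 25 genes were called lower in shAdar2, where 27.3% of all tested genes were called lower, with a median of −1.73. Thus the direction for shAdar1 was higher against 1 control hairpin and split evenly against the other (16 genes with a positive and 16 with a negative estimate), while shAdar2 lay lower against both. The comparisons share their control samples and are not independent of each other.

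**Figure D2:**
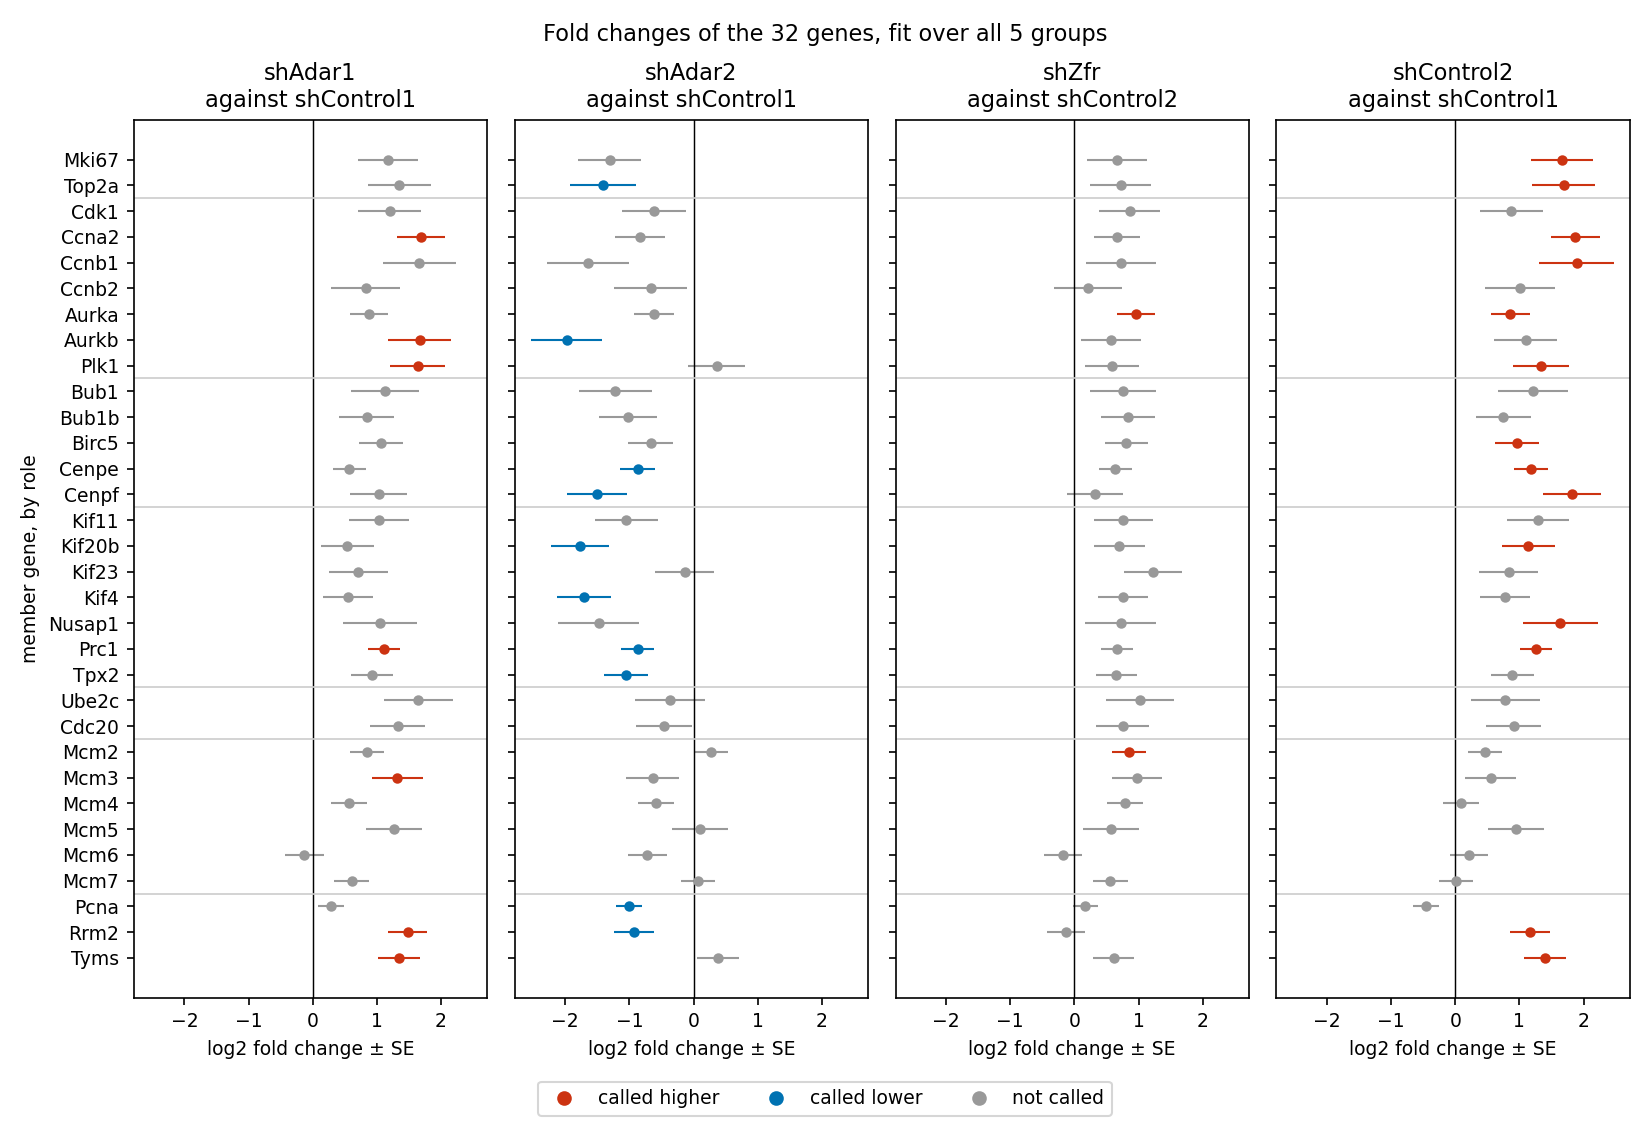
Points are log2 fold changes of the 32 genes (vertical axis, by role) in 4 comparisons, bars are 1 SE from edgeR's fit over all 5 groups, and colour marks genes called higher (red), lower (blue) or not called (grey). Most points lie right of 0 in shAdar1, shZfr and shControl2 and left of 0 in shAdar2, with 7, 2, 14 and 10 genes called in shAdar1, shZfr, shControl2 and shAdar2.

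Promoters were read as a description of these genes, and the words in them do not depend on the levels in these samples. The part of these words in the differences between groups was not tested. RefSeq windows on GRCm38.p6, from 250 bases before to 50 bases after the annotated start, were at hand for 28 of the 32 genes, all but Ccna2, Aurkb, Tpx2 and Mcm4. Searched on both strands were the cell cycle genes homology region (CHR), as TTTGAA or TTTAAA, the word CCAAT, known from binding by NF-Y, and the E2F words TTTGGCGC, TTTGCCGC, TTTCGCGC and TTTCCCGC. Neighbouring matches can overlap, as the 2 E2F words of Mcm5 do. A CHR word stood in 18 of 20 mitotic windows (90.0%), in 3 of 8 replication windows (37.5%) and in 27.8% of the first windows of all 27025 genes in the table. CCAAT stood in 17 of 20 mitotic windows (85.0%), 7 of 8 replication windows (87.5%) and 37.9% of all. An E2F word stood in 1 of 20 mitotic windows (5.00%), in 4 of 8 replication windows (50.0%) and in 2.32% of all. Both CHR and CCAAT stood in 16 of 20 mitotic windows (80.0%) and 10.9% of all.

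The windows of 3 mitotic genes and 2 helicase genes show these arrangements, 5′ to 3′ on the gene's strand, with the searched words in capitals. A match describes the letters only and was not tested for binding. Prc1 lies at chr7:80294201-80294500 on the plus strand, Cenpe at chr3:135212313-135212612 on the plus strand, Cenpf at chr1:189688037-189688336 on the minus strand, Mcm5 at chr8:75109259-75109558 on the plus strand and Mcm3 at chr1:20820263-20820562 on the minus strand.
Prc1: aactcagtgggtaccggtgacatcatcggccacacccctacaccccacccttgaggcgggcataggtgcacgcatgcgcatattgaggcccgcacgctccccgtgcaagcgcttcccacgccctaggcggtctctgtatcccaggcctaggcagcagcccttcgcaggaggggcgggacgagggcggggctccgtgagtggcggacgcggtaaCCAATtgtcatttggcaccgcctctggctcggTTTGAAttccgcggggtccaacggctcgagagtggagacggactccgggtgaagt
Cenpe: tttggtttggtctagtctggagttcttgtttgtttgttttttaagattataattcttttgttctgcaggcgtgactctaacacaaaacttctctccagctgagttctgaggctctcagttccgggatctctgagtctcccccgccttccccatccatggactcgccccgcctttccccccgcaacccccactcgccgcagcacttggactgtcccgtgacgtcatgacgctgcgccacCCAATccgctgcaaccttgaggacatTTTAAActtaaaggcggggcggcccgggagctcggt
Cenpf: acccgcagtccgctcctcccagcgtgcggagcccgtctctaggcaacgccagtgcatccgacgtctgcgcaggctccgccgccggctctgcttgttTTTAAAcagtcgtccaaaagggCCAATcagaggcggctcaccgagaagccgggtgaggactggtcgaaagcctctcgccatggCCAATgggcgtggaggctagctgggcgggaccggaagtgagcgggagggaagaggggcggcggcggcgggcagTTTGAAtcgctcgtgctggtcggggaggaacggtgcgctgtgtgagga
Mcm5: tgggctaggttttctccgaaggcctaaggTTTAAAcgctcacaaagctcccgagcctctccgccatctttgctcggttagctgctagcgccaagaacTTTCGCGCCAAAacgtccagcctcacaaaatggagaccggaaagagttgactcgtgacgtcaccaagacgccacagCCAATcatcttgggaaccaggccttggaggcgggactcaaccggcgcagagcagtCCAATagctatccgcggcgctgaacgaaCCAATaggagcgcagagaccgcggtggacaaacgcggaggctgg
Mcm3: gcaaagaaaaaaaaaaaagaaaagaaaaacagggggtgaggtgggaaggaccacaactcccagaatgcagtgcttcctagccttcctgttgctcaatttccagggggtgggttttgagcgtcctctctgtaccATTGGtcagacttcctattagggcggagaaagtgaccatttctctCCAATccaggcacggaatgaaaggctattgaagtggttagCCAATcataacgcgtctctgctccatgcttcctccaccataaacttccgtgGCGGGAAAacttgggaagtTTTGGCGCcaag
In Prc1, CCAAT begins 37 bases and TTTGAA 5 bases before the start. In Cenpe, CCAAT begins 12 bases before the start and TTTAAA lies just after it. Cenpf holds CCAAT in 2 copies and each CHR word in 1, with TTTAAA beginning 154, CCAAT 132 and 71 bases before the start and TTTGAA just after it. Mcm5 has its E2F words beginning 153 and 149 bases before the start, and Mcm3 has both of its E2F words after the start.

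Mki67 and Top2a, a coat protein of mitotic chromosomes and the topoisomerase that untangles sister DNA, had the highest means per length of the mitotic genes over the 10 samples. In shAdar2 Ube2c stood at or near their level, at 6.35 and 12.5 TPM, where Mki67 was at 4.15 and 12.4 and Top2a at 4.32 and 13.1 TPM. Mki67 stood at 69.8 and 66.0 CPM in shControl1, 211 and 217 in shControl2, 85.0 and 220 in shAdar1, 14.3 and 42.2 in shAdar2, and 351 and 323 in shZfr. The 2 shZfr samples were the highest, both shAdar2 samples the lowest, and replicate 2 of shAdar1 lay level with shControl2 while replicate 1 lay just above shControl1. Between the controls the log2 fold change was 1.66 ± 0.48 (edgeR adjusted p = 0.0198). In shAdar2 against shControl1 it was −1.31 ± 0.49 (edgeR adjusted p = 0.0503), in shAdar1 1.17 ± 0.47 (adjusted p = 0.124) and in shZfr against shControl2 0.66 ± 0.47 (adjusted p = 0.317).

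Top2a followed Mki67 closely, with 43.6 and 32.4 CPM in shControl1, 117 and 128 in shControl2, 52.3 and 140 in shAdar1, 7.65 and 22.5 in shAdar2, and 209 and 195 in shZfr. None of the study's pairs of groups overlapped. It was called between the controls (1.69 ± 0.49, edgeR adjusted p = 0.0207) and lower in shAdar2 than in shControl1 (−1.41 ± 0.51, adjusted p = 0.0464).

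The cyclins and mitotic kinases drive entry into mitosis. Ccna2 (cyclin A2), which acts in S phase and at mitotic entry, stood at 9.80 and 7.92 CPM in shControl1, 30.2 and 34.5 in shControl2, 15.8 and 41.1 in shAdar1, 4.11 and 6.16 in shAdar2, and 53.2 and 49.3 in shZfr. It was called higher in shControl2 (1.87 ± 0.38, edgeR adjusted p = 0.00347) and in shAdar1 (1.69 ± 0.38, adjusted p = 0.0165), each against shControl1. The groups of both comparisons did not overlap, although the 2 shAdar1 samples lay on either side of shControl2.

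Ccnb1 (cyclin B1), the partner of Cdk1 at mitotic entry, had the widest range of the 32 genes. Its levels were 7.22 and 4.77 CPM in shControl1, 21.6 and 22.7 in shControl2, 9.79 and 27.8 in shAdar1, 0.883 and 3.65 in shAdar2, and 39.2 and 34.3 in shZfr. It was called between the controls (1.89 ± 0.58, edgeR adjusted p = 0.0249) and not in shAdar2 (−1.64 ± 0.64, adjusted p = 0.0601), whose replicates differed several-fold. Its relative Ccnb2 (cyclin B2), with 0.851 to 6.45 CPM over the 10 samples, moved least of the mitotic genes in shZfr against shControl2 (0.21 ± 0.53).

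Cdk1, the kinase itself, stood at 5.34 and 5.25 CPM in shControl1, 11 and 8.31 in shControl2, 6.01 and 18.2 in shAdar1, 2.20 and 5.13 in shAdar2, and 18.4 and 16.6 in shZfr. The shZfr samples lay above shControl2 and the shAdar2 samples below shControl1, in the latter case by a narrow margin in replicate 2. Cdk1 was called in none of these comparisons by edgeR, with log2 fold changes of 0.87 ± 0.49 between the controls, 0.86 ± 0.48 in shZfr, 1.2 ± 0.49 in shAdar1 and −0.61 ± 0.50 in shAdar2. Against shControl2 it was called lower in shAdar2 (−1.48 ± 0.50, edgeR adjusted p = 0.0291).

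Aurka, the Aurora kinase of the spindle poles, was 1 of the 2 genes called in shZfr against shControl2. It stood at 9.55 and 8.65 CPM in shZfr and 4.68 and 4.70 in shControl2, a log2 fold change of 0.96 ± 0.29 (edgeR adjusted p = 0.0343). In the other samples it stood at 2.42 and 2.74 CPM in shControl1, 3.37 and 6.08 in shAdar1, and 1.48 and 1.96 in shAdar2. Its means in shAdar1 and shControl2 were nearly equal (4.73 and 4.69 CPM). Between the controls it was called higher in shControl2 (0.86 ± 0.30, edgeR adjusted p = 0.0431).

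Aurkb, the Aurora kinase of the chromosomal passenger complex, was called in opposite directions in the 2 ADAR comparisons. Its levels were 2.38 and 1.71 CPM in shControl1, 4.39 and 4.34 in shControl2, 3.01 and 9.95 in shAdar1, 0.415 and 0.709 in shAdar2, and 6.73 and 6.23 in shZfr. Replicate 2 of shAdar1 was the highest of all 10 samples, while replicate 1 lay below shControl2. It was called higher in shAdar1 (1.67 ± 0.49, edgeR adjusted p = 0.0457) and lower in shAdar2 (−1.98 ± 0.56, adjusted p = 0.0162), both against the same shControl1 samples. The shAdar2 level rests on few reads, and 1 of the 3 technical libraries of replicate 1 had none. Plk1, the Polo-like kinase of centrosome maturation and cytokinesis, stood at 2.57 and 1.90 CPM in shControl1, 5.77 and 5.52 in shControl2, 3.78 and 10.1 in shAdar1, 2.21 and 3.71 in shAdar2, and 8.92 and 8.04 in shZfr. Unlike the other kinases it lay lowest in shControl1, and it was called higher in shAdar1 (1.64 ± 0.43, edgeR adjusted p = 0.0326) and in shControl2 (1.34 ± 0.44, adjusted p = 0.0325).

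**Figure D3:**
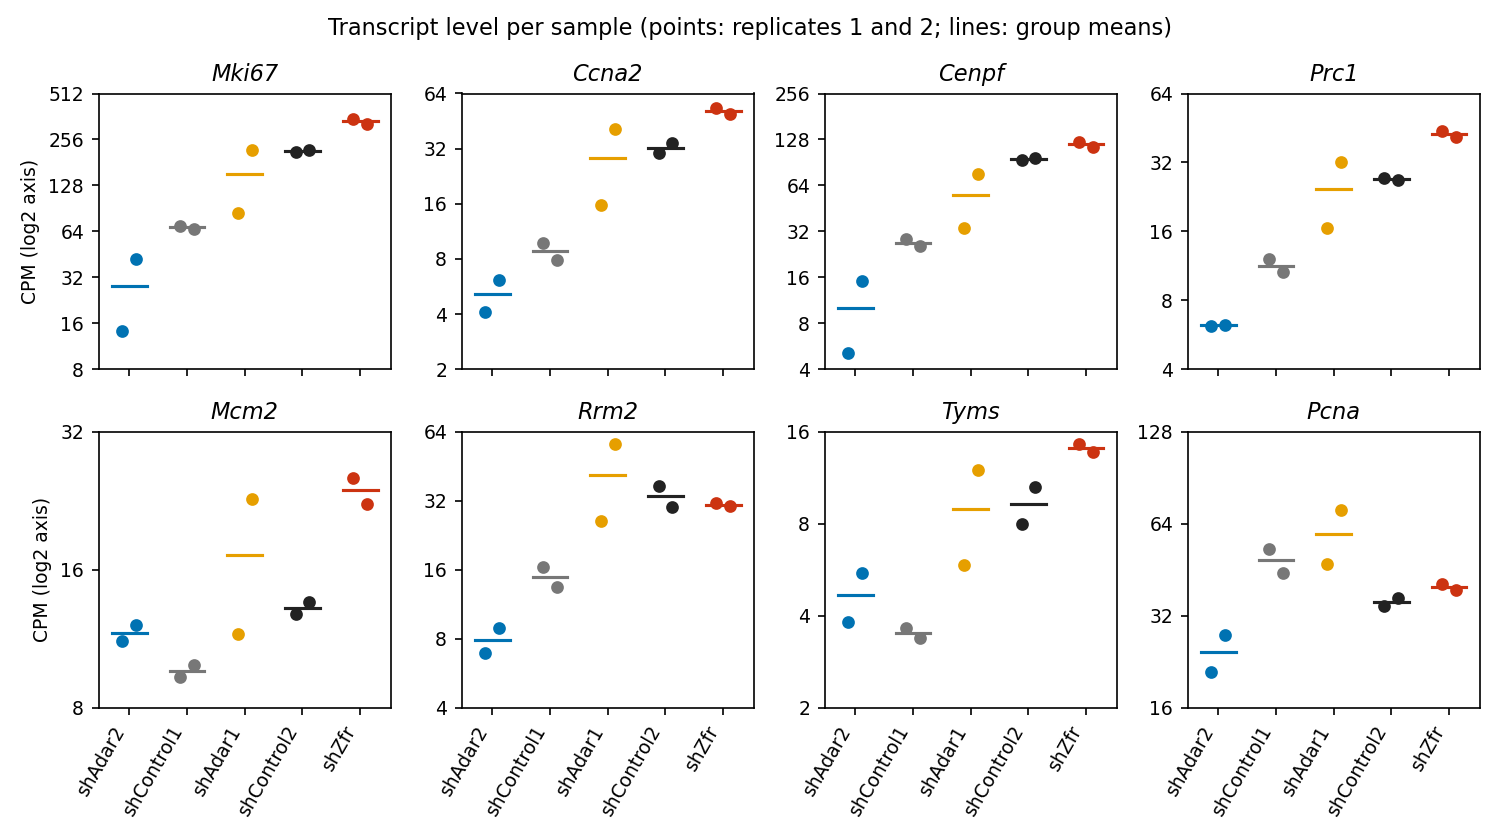
CPM of 8 of the genes in each sample (vertical axes, log2 scale, separate for each gene) by group (horizontal axis, in the order of the summed level), with points for replicates 1 and 2 and a line at the group mean. Mki67, Ccna2, Cenpf and Prc1 climb from shAdar2 to shZfr, the shAdar1 points lie far apart, and Rrm2 and Pcna are not highest in shZfr.

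The genes of the kinetochore, the spindle checkpoint and the passenger complex hold chromosomes to the spindle and delay anaphase until they are attached. Cenpf, a large kinetochore protein, stood at 28.4 and 25.6 CPM in shControl1, 94.1 and 96.1 in shControl2, 33.9 and 76.1 in shAdar1, 5.08 and 15.2 in shAdar2, and 124 and 114 in shZfr. The replicates of shControl1, shControl2 and shZfr were close, and the 3 groups were well apart. It was called higher in shControl2 (1.82 ± 0.45, edgeR adjusted p = 0.00959) and lower in shAdar2 (−1.51 ± 0.47, adjusted p = 0.0255), and its step from shControl2 to shZfr was small (0.32 ± 0.43).

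Cenpe, the kinesin that carries chromosomes to the metaphase plate, had levels of 23.0 and 19.3 CPM in shControl1, 43.8 and 51.7 in shControl2, 21.6 and 40.9 in shAdar1, 10.0 and 13.4 in shAdar2, and 73.4 and 75.2 in shZfr. Here the shAdar1 samples overlapped shControl1. The gene was called higher in shControl2 (1.18 ± 0.26, edgeR adjusted p = 0.0059) and lower in shAdar2 (−0.87 ± 0.27, adjusted p = 0.0249). Its promoter window is among those printed, which were chosen partly by their p between the controls.

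Birc5 (survivin), the passenger subunit that anchors Aurora B, stood at 4.11 and 4.19 CPM in shControl1, 7.54 and 8.58 in shControl2, 5.37 and 12.0 in shAdar1, 2.22 and 3.11 in shAdar2, and 15.1 and 13.1 in shZfr. None of the study's pairs of groups overlapped, and none was called. Birc5 was called higher in shControl2 than in shControl1 (0.96 ± 0.34, edgeR adjusted p = 0.0446), higher in shZfr than in shControl1 (1.76 ± 0.34) and lower in shAdar2 than in shControl2 (−1.63 ± 0.35). The checkpoint kinases Bub1 and Bub1b ran from 1.07 to 22.9 CPM and from 2.18 to 22.4 CPM over the samples, each lowest in replicate 1 of shAdar2 and highest in replicate 1 of shZfr. Their differences between the controls were 1.21 ± 0.54 and 0.75 ± 0.43 and did not pass the test.

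Of the 7 spindle motors and microtubule binders, 4 were called lower in shAdar2 than in shControl1, where 23.2% of all tested genes were. Of the 3 clamp and nucleotide supply genes, 2 were. Kif11, the motor that pushes the spindle poles apart, stood at 17 and 15.2 CPM in shControl1, 39.5 and 39.2 in shControl2, 16.8 and 48.5 in shAdar1, 4.53 and 11.8 in shAdar2, and 69.7 and 63.8 in shZfr. Replicate 1 of shAdar1 lay within shControl1. It just missed the test between the controls (1.29 ± 0.48, edgeR adjusted p = 0.0523).

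Kif20b, a motor of the cytokinetic midbody, stood at 9.76 and 9.08 CPM in shControl1 and at 1.77 and 4.25 CPM in shAdar2 (−1.77 ± 0.45, edgeR adjusted p = 0.0101). It stood at 17.7 and 23.9 CPM in shControl2, 8.29 and 19.1 in shAdar1 and 34.9 and 32.6 in shZfr, and was called between the controls (1.14 ± 0.41, adjusted p = 0.0483). Kif4, a chromosome-bound motor of the central spindle, stood at 8.99 and 9.82 CPM in shControl1 and at 1.88 and 4.31 CPM in shAdar2 (−1.71 ± 0.42, edgeR adjusted p = 0.00906). It stood at 16.6 and 15.7 CPM in shControl2, 8.38 and 19.1 in shAdar1 and 28.1 and 26.1 in shZfr. In both motors the shAdar1 samples spanned those of shControl1.

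Prc1, which bundles the microtubules of the central spindle, and Rrm2 were the genes called in all 4 comparisons with shControl1. The levels of Prc1 were 12.1 and 10.6 CPM in shControl1, 27.3 and 26.8 in shControl2, 16.6 and 32.3 in shAdar1, 6.18 and 6.27 in shAdar2, and 43.9 and 41.5 in shZfr. It was called higher in shControl2 (1.26 ± 0.25, edgeR adjusted p = 0.00353), in shAdar1 (1.11 ± 0.25, adjusted p = 0.0184) and in shZfr (1.91 ± 0.26, adjusted p = 0.000331), and lower in shAdar2 (−0.87 ± 0.26, adjusted p = 0.0219), each against shControl1. Against shControl2 the shZfr difference was 0.66 ± 0.25 (adjusted p = 0.0726). No group other than shAdar1 had replicates that differed much.

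Tpx2, the spindle assembly factor that activates Aurora A, stood at 15.8 and 14.5 CPM in shControl1, 28.4 and 27.6 in shControl2, 17.3 and 40.2 in shAdar1, 5.97 and 8.95 in shAdar2, and 44.2 and 43.6 in shZfr, and was called lower in shAdar2 (−1.05 ± 0.34, edgeR adjusted p = 0.0289). Nusap1, a microtubule binder near chromosomes, stood at 7.26 and 5.99 CPM in shControl1, 20.5 and 20.7 in shControl2, 7.74 and 19.5 in shAdar1, 0.947 and 4.58 in shAdar2, and 34.2 and 33.9 in shZfr. It was called between the controls (1.64 ± 0.58, adjusted p = 0.0437) and had 1 of the wider gaps between the shAdar2 replicates. Kif23, the motor subunit of centralspindlin, ranged from 2.20 to 20.4 CPM, and its difference in shZfr against shControl2 was the largest of the 32 genes (1.23 ± 0.45, edgeR adjusted p = 0.064).

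The anaphase-promoting complex marks cyclins and securin for destruction. Its coactivator Cdc20 stood at 2.84 and 2.58 CPM in shControl1, 5.82 and 4.38 in shControl2, 3.64 and 9.88 in shAdar1, 1.52 and 2.56 in shAdar2, and 8.40 and 8.75 in shZfr. The groups of each of the study's comparisons were apart, by a hair in shAdar2, and edgeR's adjusted p was 0.0645 in shAdar1, 0.414 in shAdar2 and 0.209 in shZfr. Ube2c, the ubiquitin-conjugating enzyme of the complex, ranged from 1.63 to 14.2 CPM, highest in replicate 2 of shAdar1.

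Among the helicase subunits, which unwind DNA at the fork as a ring of 6, the differences were smaller and the order of groups less regular. Mcm2 stood at 25.4 and 22.3 CPM in shZfr and 12.8 and 13.6 in shControl2, and was called (0.85 ± 0.26, edgeR adjusted p = 0.0358). It stood at 9.34 and 9.92 CPM in shControl1, 11.6 and 22.9 in shAdar1, and 11.2 and 12.1 in shAdar2. Here shAdar2 lay above shControl1, the reverse of most mitotic genes.

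Mcm5 stood at 5.69 and 6.73 CPM in shControl1, 12.3 and 11.6 in shControl2, 8.79 and 21.1 in shAdar1, 4.06 and 9.76 in shAdar2, and 18.1 and 17.5 in shZfr. The shAdar2 samples spanned shControl1 (0.10 ± 0.44), and the shZfr samples lay above shControl2 (0.57 ± 0.43, edgeR adjusted p = 0.345). Mcm3 stood at 6.49 and 6.96 CPM in shControl1, 10.5 and 9.27 in shControl2, 8.56 and 25.0 in shAdar1, 3.71 and 5.07 in shAdar2, and 19.3 and 19.4 in shZfr. It was called in shAdar1 (1.32 ± 0.40, edgeR adjusted p = 0.0496), where replicate 2 lay far above replicate 1.

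Mcm6 stood at 31.2 and 26.4 CPM in shControl1, 32.3 and 34.2 in shControl2, 16.4 and 36.0 in shAdar1, 15.4 and 19.9 in shAdar2, and 30.7 and 28.0 in shZfr. It was the only 1 of the 32 genes whose shZfr samples both lay below shControl2 (−0.18 ± 0.30, edgeR adjusted p = 0.682). Mcm4 ranged from 11.5 to 39.5 CPM and Mcm7 from 16.1 to 35.8 CPM, and their differences between the controls were 0.09 ± 0.28 and 0.01 ± 0.27. In shZfr against shControl2 they were 0.79 ± 0.28 and 0.56 ± 0.27, with the groups apart in both.

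Pcna, the clamp that holds polymerases on DNA and also serves in repair, departed from the common order. It stood at 52.9 and 44.3 CPM in shControl1, 34.4 and 36.6 in shControl2, 47.4 and 71.2 in shAdar1, 21.0 and 27.7 in shAdar2, and 40.7 and 39.0 in shZfr. The control hairpins stood in the reverse order to Mki67, with a difference that was not called in the fit of all groups (−0.46 ± 0.20, edgeR adjusted p = 0.0909) and was called lower in shControl2 in the fit of the 4 control samples (−0.43 ± 0.15). It was called lower in shAdar2 than in shControl1 (−1.01 ± 0.20, edgeR adjusted p = 0.00306) and higher in shAdar1 than in shControl2 (0.74 ± 0.20, adjusted p = 0.0185).

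The enzymes that supply deoxynucleotides were both called higher in shControl2 and in shAdar1 than in shControl1. Rrm2, the small subunit of ribonucleotide reductase, stood at 16.4 and 13.5 CPM in shControl1, 37.0 and 30.2 in shControl2, 26.2 and 56.7 in shAdar1, 6.94 and 8.89 in shAdar2, and 31.3 and 30.3 in shZfr. Both shZfr samples fell within shControl2, and it was the only 1 of the 32 genes whose shZfr and shControl2 samples overlapped. It was called higher in shAdar1 (1.48 ± 0.31, edgeR adjusted p = 0.0128) and in shControl2 (1.17 ± 0.31, adjusted p = 0.0127) and lower in shAdar2 (−0.93 ± 0.31, adjusted p = 0.0355), each against shControl1. Tyms, thymidylate synthase, stood at 3.65 and 3.38 CPM in shControl1, 8.02 and 10.6 in shControl2, 5.88 and 12.0 in shAdar1, 3.82 and 5.51 in shAdar2, and 14.6 and 13.8 in shZfr. It was called higher in shAdar1 (1.35 ± 0.33, edgeR adjusted p = 0.0243) and in shControl2 (1.4 ± 0.33, adjusted p = 0.00765), and both shAdar2 samples lay above shControl1 (0.38 ± 0.33).

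Replicates of the 2 ADAR hairpins split in these genes. In shAdar1 all 32 genes were lower in replicate 1 than in replicate 2, with a median log2 difference of −1.21 (range −1.78 to −0.59), and 25 of them by 1 or more. Of all tested genes, 50.9% were lower in replicate 1 and 4.80% by 1 or more. In shAdar2 again all 32 were lower in replicate 1, with a median of −0.73 (range −2.20 to −0.02), against 51.7% of all tested genes. The medians of replicate 1 minus replicate 2 were 0.16 in shControl1, −0.03 in shControl2 and 0.10 in shZfr. Progenitor markers moved with the split: 13 of 14 markers of radial glia and intermediate progenitors were lower in replicate 1 of shAdar1 (median −0.90) and 14 of 14 in replicate 1 of shAdar2 (median −0.91), as were 9 and 10 of 10 oligodendrocyte precursor markers (medians −1.64 and −1.80) and 10 of 10 astrocyte markers in each (medians −0.75 and −1.09). The neuron markers had medians of 0.24 and 0.19. The part of these cells in the split was not tested.

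The 3 technical libraries of shAdar2 replicate 1 did not hold these genes at 1 level. Mki67 stood at 9.47, 26.8 and 8.99 CPM in libraries 1, 2 and 3, although all came from RNA of the same neurons, and Top2a at 5.53, 11.7 and 6.83 CPM. Library 2 was higher than both others for 27 of the 32 genes, against 39.5% of all tested genes. With library 1, 2 or 3 alone in place of the sum, 9, 7 or 8 of the 32 genes were called lower in shAdar2 than in shControl1, and with libraries 1 and 3, an alternative chosen after seeing the data, 9 were. Of all genes 22.6%, 22.7%, 22.4% and 22.5% were called lower in these fits, so that 7 and 8 of 32 lay near the share of all genes. Each single library of replicate 1 lay below replicate 2 for both genes (42.7 CPM for Mki67 and 22.7 CPM for Top2a).

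The count of called genes in shZfr differed with the groups included in the fit. The fit over all groups gave the 32 genes a median SE of 0.41 in shZfr against shControl2, and the fit of these 4 samples alone 0.11. In the latter 28 genes passed, all higher, against 27.7% of all genes called higher, and the 4 that did not were Ccnb2 (0.14 ± 0.15), Mcm6 (−0.25 ± 0.10), Pcna (0.10 ± 0.09) and Rrm2 (−0.19 ± 0.11). The estimates themselves hardly moved, for example from 0.66 ± 0.47 to 0.59 ± 0.07 for Mki67 and from 1.23 ± 0.45 to 1.17 ± 0.11 for Kif23. Leaving out only the shAdar1 and shAdar2 groups, an alternative chosen after seeing the data, gave 27 called genes (21.8% of all genes called higher). The same held between the controls, where the median SE was 0.42 with all groups and 0.17 with the 4 control samples. For the ADAR hairpins against shControl1 the median SE was nearly the same in both fits, 0.42 and 0.38 for shAdar1 and 0.44 and 0.44 for shAdar2.

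**Figure D4:**
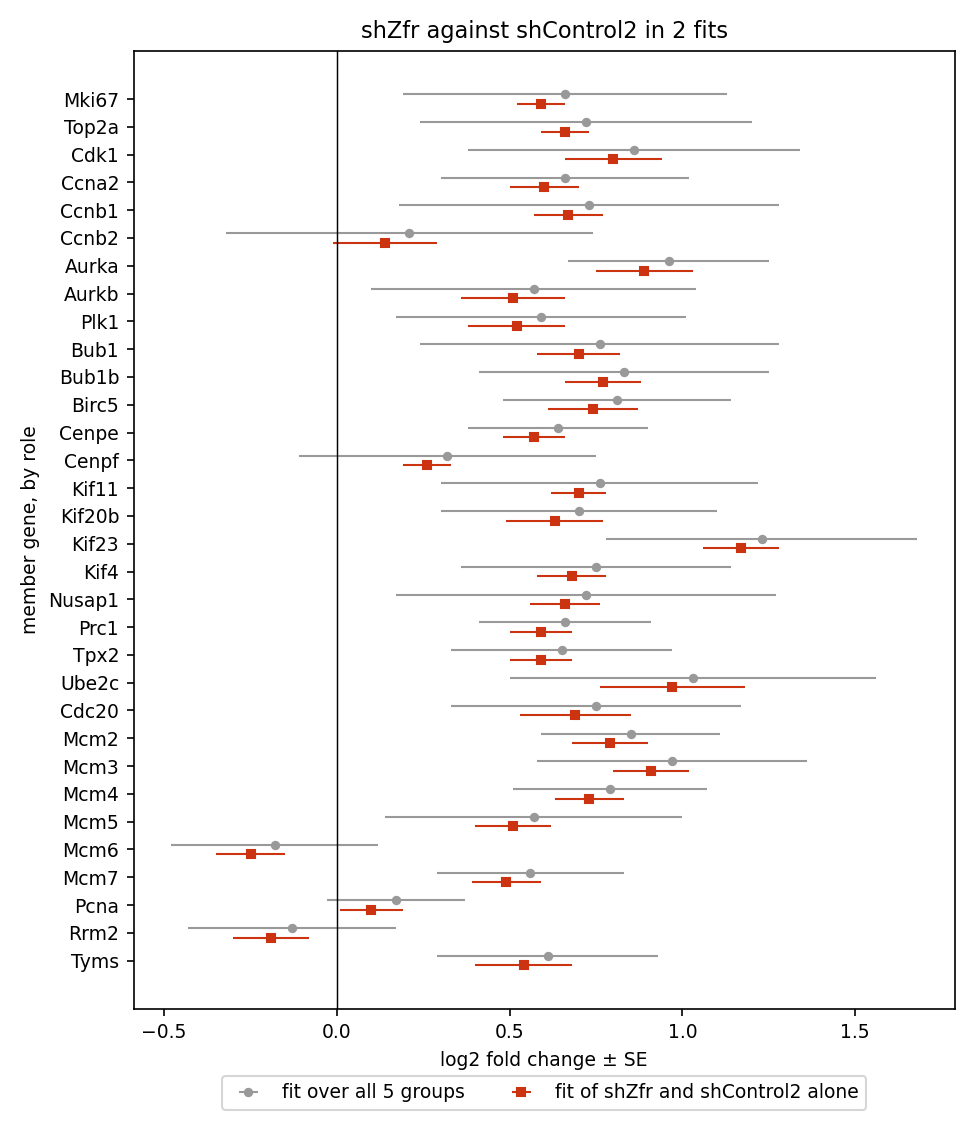
Log2 fold changes in shZfr against shControl2 of the 32 genes (vertical axis, by role) with bars of 1 SE, from edgeR's fit over all 5 groups (grey circles) and over shZfr and shControl2 alone (red squares). The 2 estimates of a gene lie close together, while the median SE is 0.41 in the first and 0.11 in the second.

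Other genes of the same pathways were read from lists chosen with earlier results of these data known. Of 43 further mitotic genes, 16 were called higher in shControl2 and 1 in shControl1 (median 0.92), 9 were called higher and 1 lower in shAdar1 (median 0.90) and 11 lower in shAdar2 (median −0.81), both against shControl1, and 5 higher in shZfr against shControl2 (median 0.66). Of all tested genes, 19.9%, 9.33%, 23.2% and 16.7% were called in the leading direction of these 4 comparisons. The counts thus lay above that share between the controls and in shAdar1, near it in shAdar2 and below it in shZfr. Aspm, a spindle pole protein of neural progenitors, stood at 11.9 CPM in shControl1 and 42.6 CPM in shControl2 (1.85 ± 0.35, edgeR adjusted p = 0.0026). Smc2, a condensin subunit, rose from 48.5 CPM in shControl2 to 119 CPM in shZfr (1.29 ± 0.28, adjusted p = 0.00718) and was at 10.6 CPM in shAdar2 against 33.0 CPM in shControl1 (−1.68 ± 0.29, adjusted p = 0.00151). The exception was Pttg1, the separase inhibitor securin, which was called lower in shControl2 (−1.79 ± 0.29, adjusted p = 0.00116) and in shAdar1 (−1.44 ± 0.29, adjusted p = 0.0103).

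Of 40 further replication genes, 5 were called higher in shControl2 and 4 in shControl1, 6 higher in shAdar1 and 1 higher and 8 lower in shAdar2, both against shControl1, and 7 higher in shZfr against shControl2. Their medians were 0.10, 0.44, −0.13 and 0.51. Against the shares of all tested genes (19.9% higher and 23.2% lower between the controls, 9.33% higher in shAdar1, 23.2% in each direction in shAdar2 and 16.7% higher in shZfr), only the count in shAdar1 lay above by more than 1 gene. Fen1, the flap endonuclease of lagging strand synthesis, was called lower in shAdar2 (−1.66 ± 0.29, edgeR adjusted p = 0.00158) and higher in shZfr (1.14 ± 0.28, adjusted p = 0.0142), and Lig1, the ligase that joins the fragments, was called higher in shAdar1 (0.85 ± 0.23, adjusted p = 0.0368) and in shZfr (0.88 ± 0.23, adjusted p = 0.0174). As in the 32, replication genes differed less between the controls than mitotic genes, and in both directions.

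Regulators of the entry into S phase, listed with Foxm1 and Mybl2 of the later mitotic wave, were mixed. The list held 16 genes: D and E cyclins, their kinases, Cdc25a, E2F genes, Foxm1 and Mybl2. Of the 16, 4 were called higher in shControl2, 1 higher in shAdar1 and 2 higher and 3 lower in shAdar2, each against shControl1. In shZfr against shControl2, 3 were called higher and 1 lower. None of these counts lay more than 1 gene above the share of all tested genes called. Ccnd2 (cyclin D2) stood at 291 and 286 CPM in shControl2 and 807 and 812 CPM in shZfr (1.49 ± 0.34, edgeR adjusted p = 0.0103). E2f1, the S phase activator, went the other way, from 8.06 and 8.13 CPM to 4.66 and 4.17 CPM (−0.87 ± 0.23, adjusted p = 0.0165).

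Of 16 CDK inhibitors, pocket proteins, repressive E2F genes and MuvB subunits, 5 were called higher in shControl2 and 3 in shControl1, 1 higher and 1 lower in shAdar1 and 2 higher and 4 lower in shAdar2, both against shControl1, and 4 higher and 1 lower in shZfr against shControl2. The 5 and 4 called higher between the controls and in shZfr lay above the shares of all tested genes (19.9% and 16.7%) by fewer than 2 genes, and the other counts lay near or below theirs. Cdkn1a (p21), a CDK inhibitor induced by p53, stood at 81.7 and 102 CPM in shControl1, 30.7 and 24.5 in shControl2, 34.4 and 27.9 in shAdar1, 127 and 113 in shAdar2, and 75.1 and 74.7 in shZfr. It was called lower in shControl2 (−1.74 ± 0.16, edgeR adjusted p = 7.3e-05) and in shAdar1 (−1.56 ± 0.16, adjusted p = 0.00072) than in shControl1, and higher in shZfr than in shControl2 (1.44 ± 0.16, adjusted p = 0.000279). So across the control and ADAR groups Cdkn1a was high where Mki67 was low, while in shZfr both lay above shControl2. The pocket protein Rbl1 (p107) was called higher in shControl2 (1.99 ± 0.43, adjusted p = 0.0048) and in shAdar1 (1.82 ± 0.43, adjusted p = 0.0202).

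Markers of cells other than neurons moved with part of this pattern. The 14 markers of radial glia and intermediate progenitors summed to 986 and 1270 CPM in shControl1, 2200 and 2450 in shControl2, 1260 and 2470 in shAdar1, 604 and 1420 in shAdar2, and 2740 and 2870 in shZfr. The group means of these sums stood in the same order as those of the 32 genes, as did those of the neuron marker sums. In the progenitor sums, however, the shAdar1 samples spanned both shControl2 samples and overlapped shControl1, and those of shAdar2 spanned both shControl1 samples. Single markers did not all follow the sums. Their median log2 fold change was 0.12 in shZfr against shControl2, and 0.05 over all tested genes. In shAdar2 against shControl1 it was 0.18, with 9 estimates positive and 5 negative. The 10 astrocyte markers summed to 394 and 565 CPM in shControl1, 1470 and 1760 in shControl2, 851 and 1150 in shAdar1, 462 and 657 in shAdar2, and 463 and 479 in shZfr. Their sum was thus at the shControl1 level in shZfr, where the 32 genes were highest. Single astrocyte markers differed in both directions, with log2 fold changes in shZfr against shControl1 from −3.84 to 2.07. Of these 10 markers, 3 were called higher and 2 lower, where 22.8% and 23.4% of all tested genes were. The 10 oligodendrocyte precursor markers summed to 97.5 and 148 CPM in shControl1, 533 and 547 in shControl2, 168 and 456 in shAdar1, 117 and 389 in shAdar2, and 363 and 410 in shZfr. The 12 neuron markers summed to 4160 and 4260 CPM in shAdar2, 7550 and 6920 in shControl1, and 8910 and 7790 in shAdar1. In shControl2 they summed to 9660 and 10400 CPM and in shZfr to 11400 and 11600, so no groups overlapped. The order of the 32 genes was thus not particular to the progenitor markers.

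By gene, 8 of 14 radial glia and progenitor markers, 7 of 10 astrocyte markers and 7 of 10 oligodendrocyte precursor markers were called higher in shControl2 than in shControl1. In shAdar1 against shControl1, 3 progenitor and 5 astrocyte markers were called higher, and in shAdar2 2 progenitor, 1 astrocyte and 1 oligodendrocyte precursor marker were called higher. In shZfr against shControl2, 3 progenitor markers were called higher and 1 lower, 1 astrocyte marker higher and 6 lower, and 2 oligodendrocyte precursor markers lower. Of all tested genes, 19.9% were called higher between the controls, 9.33% in shAdar1, 23.2% in shAdar2 and 16.7% in shZfr, and 14.1% were called lower in shZfr. Vim, an intermediate filament of radial glia, rose from 167 CPM in shControl2 to 527 CPM in shZfr (1.66 ± 0.27, edgeR adjusted p = 0.00196), while the glutamate transporter Slc1a2 fell from 1050 to 190 CPM (−2.47 ± 0.15, adjusted p = 2.9e-05). Vim had the largest difference of the 14 progenitor markers, whose log2 fold changes ran from −1.04 to 1.66 with a median of 0.12. The 5 tested microglia markers summed to 4.75 and 3.71 CPM in shAdar2 and to at most 1.46 CPM in any other sample, and 1 of them was called higher in shAdar2 than in shControl1 and 2 higher than in shControl2. The 5 that were not tested had at most 120 (Aif1), 88 (C1qb), 39 (Csf1r), 26 (Cx3cr1) and 1 (Tmem119) counts in any sample, not scaled for depth. The endothelial genes Cldn5 and Cdh5 had at most 3 and 1 counts. The part of progenitors, glia and microglia in the level of the 32 genes was not tested.

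**Figure D5:**
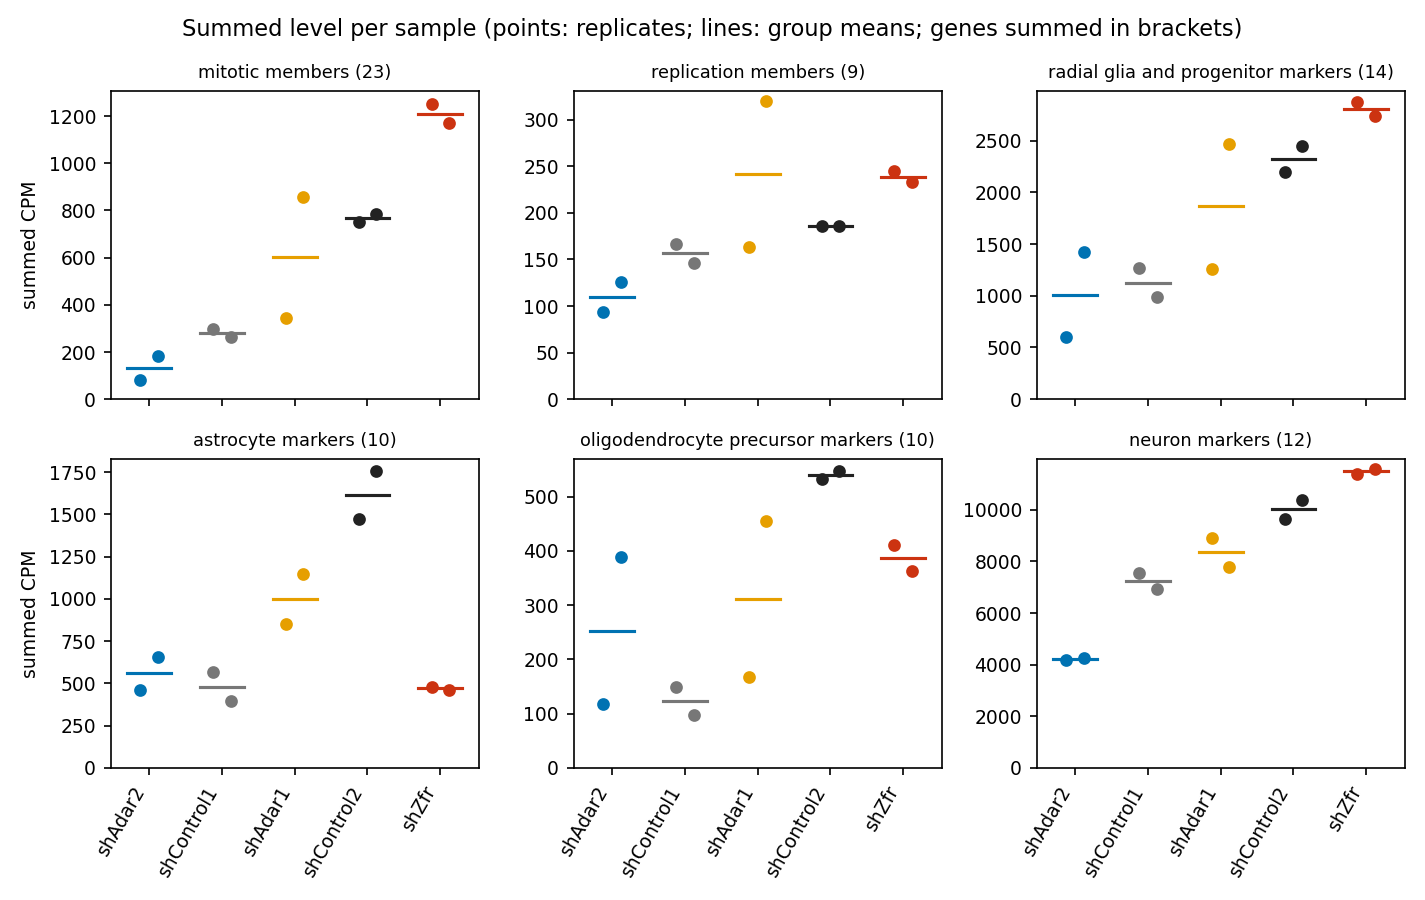
Summed CPM per sample (vertical axes, from 0, separate for each panel) by group (horizontal axis) for the 23 mitotic genes, the 9 replication genes and 4 lists of cell markers, with points for replicates and a line at the group mean. The group means of the radial glia and progenitor panel and those of the neuron panel both stand in the order of the mitotic panel. The astrocyte panel has shZfr at 463 and 479 CPM against 1470 and 1760 in shControl2.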

How the data were processed

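The authors deposited 1 gene table per library holding TPM beside the expected counts of RSEM, which are unscaled estimates of reads, per the file headers. The submitters' processing notes list RSEM 1.2.30, DESeq2 1.20.0, STAR 2.5.4b, Trim Galore 0.4.5, SAMtools 1.4 and build mm9 without roles. Tables of editing sites were not used here. Expected counts were rounded to whole numbers, the 3 technical libraries of shAdar2 replicate 1 were summed (their TPM averaged), and genes passing filterByExpr were tested in all 10 samples (5 residual degrees of freedom) by quasi-likelihood in edgeR 4.0.16 under R 4.3.3, with TMM factors. P-values were adjusted over all 14785 genes by the Benjamini-Hochberg method, and an SE is the fold change divided by the root of F. The fit was also run on simulated counts with known fold changes. The 32 genes and all gene lists were chosen with earlier results of these data known. Any of the 32 may be named. Values in every sample are given for a fixed set of 15 and for called genes, other cell cycle lists give at most 3 genes per comparison by lowest p, and marker lists at most 2. Promoters were taken for the mitotic and replication genes with the lowest p between the controls that hold a searched word. Alternatives were DESeq2 1.42.0, median ratio size factors, no filter beyond a count above 0, a replicate block, the compared groups alone, each replicate left out and single technical libraries. The SE of a fit covers only the spread between the 2 replicates of each group, pooled over the groups in that fit. In edgeR each gene's spread is also drawn towards that of other genes, so an SE does not rest on that gene alone. Levels at few counts are imprecise.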

Additional observations from a re-analysis of the deposited data

How the results depend on the processing

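Counts of the 32 genes changed in size between alternatives, and in 3 comparisons calls in the other direction appeared. With all replicates kept, each such fit called 1 of the 32 genes in that direction, below the share of all genes. Between the controls that share was 26.5% in the 2 groups alone and 29.8% without shAdar1 and shAdar2, where 29.5% were called higher. It was 17% by DESeq2 in shAdar1 against shControl2 and 32.2% without shAdar1 and shAdar2 in shZfr against shControl1. Shares for the other fits with all replicates are given above. For genes called higher in shAdar1 than in shControl1 (7), DESeq2 gave 14, no filter on low counts 18 and the 2 groups alone 2, and leaving out 1 replicate gave 0 to 22. For genes lower in shAdar2 than in shControl1 (10), no filter gave 18 and leaving out 1 replicate 2 to 18. For genes higher in shZfr than in shControl2 (2), DESeq2 gave 7, no filter 7, the 2 groups alone 28, the fit without shAdar1 and shAdar2 27, and leaving out 1 replicate 0 to 0. Between the controls (14 higher), the 2 groups alone and the fit without shAdar1 and shAdar2 each gave 28 higher and 1 lower, and leaving out 1 replicate gave 2 to 6 higher. In shAdar1 against shControl2, DESeq2 called 1 gene lower, and leaving out 1 replicate gave 0 to 8 higher and 0 to 4 lower. In shZfr against shControl1 (28 higher), the fit without shAdar1 and shAdar2 called 1 gene lower, and leaving out 1 replicate gave 13 to 21 higher. The fit without shAdar1 and shAdar2 and the sum of technical libraries 1 and 3 were chosen after seeing the data. Where a replicate was left out, the lone sample was assumed to vary like the other groups. The cause of these shifts was not tested. In shZfr against shControl2 the median SE was 0.41 in the fit over all groups and 0.11 in the fit of the 2 groups alone.

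Samples with the same replicate number were not treated as pairs. Their deviations from the group mean correlated at −0.12 to 0.08 between groups, except at 0.28 between shAdar1 and shAdar2. Whether the samples of these 2 groups were paired was not tested. With the replicate number as a block the counts were 6 in shAdar1 and 15 in shAdar2 against shControl1, 3 in shZfr against shControl2, 16 between the controls, 1 and 26 in shAdar1 and shAdar2 against shControl2, and 28 in shZfr against shControl1. The shares of all tested genes, in the same order, were 9.13% higher, 23.3% lower, 16.7% higher, 20.2% higher, 19.3% higher, 27.7% lower and 22.9% higher. The 3 genes in shZfr and the 1 in shAdar1, each against shControl2, lay below these shares. Genes at a few CPM, such as Aurkb in shAdar2, are limited by depth.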
